A study of Mus musculus with 18 samples.

Results

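The genes of 8 candidate receptors for specialized pro-resolving mediators (SPMs) were followed in bulk RNA-seq of L3–L5 dorsal root ganglia (DRG) of CD1 mice, an outbred strain. They were chosen by symbol (*Gpr37*, *Gpr37l1*, *Fpr2*, *Fpr1*, *Cmklr1*, *Gpr18*, *Lgr6* and *Rora*), and all 8 were found among the 36737 genes of the table, each as a single entry. The mice had undergone sham surgery, tibial fracture with vehicle, or tibial fracture with protectin DX (PDX), and the ganglia were taken on day 3 after fracture. There were 3 males and 3 females in each of the 3 groups, and each of the 18 mice gave 1 library. The fracture model combines an incision, a steel pin in the marrow canal of the tibia and a cut through the bone. The dose of PDX, the day of the sham mice and any injection of the sham mice are not given for these libraries in the sources used here. No group carried a transgene or a deletion, and the ganglia were sequenced as whole tissue.

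SPMs are lipids that cells make from omega-3 and omega-6 fatty acids during the later phase of inflammation. They act mostly through G protein-coupled receptors, which limit the entry of neutrophils, drive macrophages to clear dead cells and dampen the firing of nociceptors. Protectins have been linked to GPR37, maresin 1 to GPR37L1, LGR6 and the nuclear receptor RORα, lipoxin A4 and D-series resolvins to ALX/FPR2, resolvin E1 to CMKLR1 (ChemR23) and resolvin D2 to GPR18. Most of these receptors also bind peptides or proteins, among them prosaposin (GPR37 and GPR37L1), annexin A1 and formyl peptides (FPR1 and FPR2), chemerin (CMKLR1) and R-spondins (LGR6). For FPR1, no SPM is named here. In the DRG, neurons lie wrapped in satellite glia, among Schwann cells, vessels and resident macrophages.

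The coordinates of the table are those of GRCm38. *Gpr37* (ENSMUSG00000039904) lies on the minus strand of chromosome 6 from 25665878 to 25690729. *Gpr37l1* (ENSMUSG00000026424) lies on the minus strand of chromosome 1 from 135160234 to 135167681. *Lgr6* (ENSMUSG00000042793), on the same strand from 134983301 to 135105276, is separated from it by 54957 bases. *Cmklr1* (ENSMUSG00000042190) lies on the minus strand of chromosome 5 from 113612354 to 113650426, and *Rora* (ENSMUSG00000032238) on the plus strand of chromosome 9 from 68653786 to 69388246. *Gpr18* (ENSMUSG00000050350), on the minus strand of chromosome 14 from 121911253 to 121915781, lies inside *Ubac2*, which runs on the plus strand. The libraries were made with a stranded kit, but the strand setting of the count is not given in the sources used here. Of the 8 genes, *Gpr18* alone overlapped another gene of the table.

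The depth ran from 63235040 to 82824942 counted reads per library. All 12 sensory neuron markers and all 10 satellite glia markers were detected in each group, with summed levels of 11837–14243 and 3339–4784 CPM (counts scaled to library size) per library. *Rora* stood apart in 3 libraries, and its comparisons are given with and without them. Marker genes of skeletal muscle, a tissue next to the ganglion at dissection, summed to 15.8–1188 CPM per library. Their median log2 fold change was 2.05 for fracture against sham and -1.89 for PDX against fracture, with all 10 estimates of the same sign in each and 0 of 10 past the threshold in either. The part of these transcripts in the results was not tested.

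Levels of different genes were compared by FPKM, which is scaled by transcript length. *Gpr37l1* was by far the most abundant receptor gene, with a median of 44.2 FPKM (range 39.4–50.1, 18 libraries), and only 2.58% of the genes in the table had a higher median. *Gpr37*, the closest relative of *Gpr37l1* in the list, followed with 2.57 FPKM (2.19–2.88). The ratio of *Gpr37l1* to *Gpr37* ran from 14.3 to 21.2, with a median of 17.6, and its group medians were 18.8 (sham), 16.7 (fracture) and 17.5 (PDX). Below this pair came *Rora* with a median of 1.1 FPKM (0.06–1.45), *Cmklr1* with 0.87 (0.43–1.77), *Fpr2* with 0.85 (0.34–2.39) and *Fpr1* with 0.61 (0.26–1.55). *Gpr18* (0–0.18) and *Lgr6* (0.06–0.17) were lowest, both with a median of 0.11.

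The ranges of *Gpr37l1* and *Gpr37* did not overlap, nor did those of *Gpr37* and *Rora* or of *Fpr1* and *Gpr18*. The neighbours between *Rora* and *Fpr1* overlapped. *Rora* was above *Cmklr1* in 9 of the 18 libraries and *Cmklr1* above *Fpr2* in 9. The order of these genes differed between groups. *Rora* was above *Cmklr1* in 1 of 6 sham, 4 of 6 fracture and 4 of 6 PDX libraries. The group medians of *Rora*, *Cmklr1* and *Fpr2* were 1.11, 1.13 and 0.89 FPKM in sham, 1.06, 0.77 and 0.69 after fracture and 1.12, 0.65 and 1.13 with PDX. *Fpr2* was above *Fpr1* in 17. *Gpr18* and *Lgr6* could not be ordered, and by CPM, which takes no account of length, they changed places. These are levels of whole ganglia, so fewer cells of a type and less RNA per cell cannot be told apart.

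**Figure D1:**
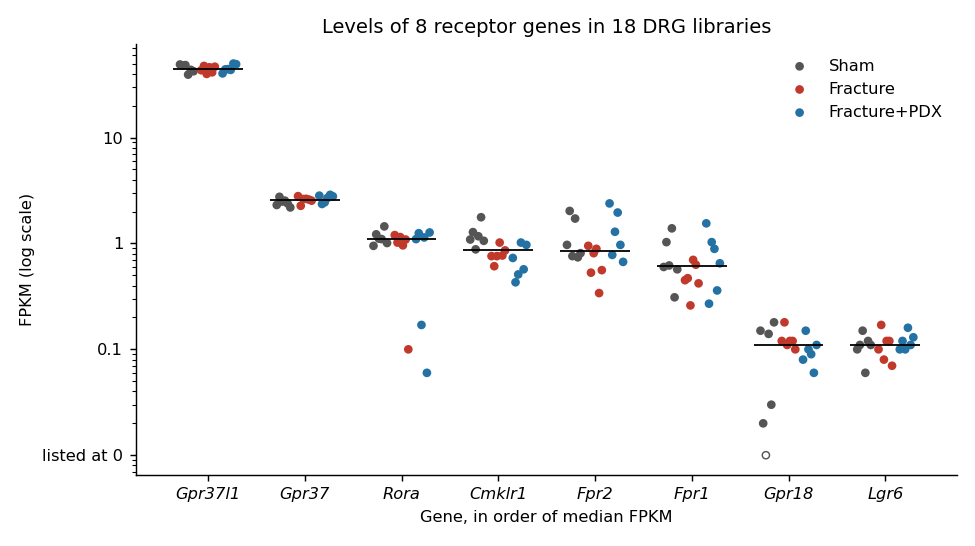
FPKM (log scale) of the 8 receptor genes in 18 DRG libraries, 1 point per mouse, coloured by group; the horizontal line is the median of all libraries and the open point is a library listed at 0. *Gpr37l1* sits between 39.4 and 50.1 and *Gpr37* between 2.19 and 2.88, while 3 libraries lie far below the others for *Rora* and 3 sham libraries for *Gpr18*.

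The groups were compared with edgeR's quasi-likelihood test on the counts, with sex as a covariate and p-values adjusted over all genes by the Benjamini-Hochberg method. Fold changes below are from that fit, and CPM are counts scaled by TMM. PDX against fracture was the comparison for the drug, and there 0 of the 8 receptor genes passed an adjusted p of 0.05, as did 0% of the 20562 genes tested (lowest adjusted p = 0.671). At an unadjusted p under 0.05, 1 of the 8 (*Fpr2*) was counted, against 5.41% of all genes (1113). DESeq2 called 10 genes in this comparison, and 0 of them were among the 8. Between fracture and sham mice, 1 of the 8 (*Cmklr1*) was called, against 2.92% of 20659 genes (603). Between fracture plus PDX and sham mice, 1 of the 8 (*Cmklr1* again) was called, against 4.5% of 20574 genes (925). Both of the latter comparisons use the same 6 sham mice. The median log2 fold change of the 8 was -0.17 after fracture and 0.05 with PDX against fracture, where the medians over all genes tested were 0.0021 and -4.5e-05.

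**Figure D2:**
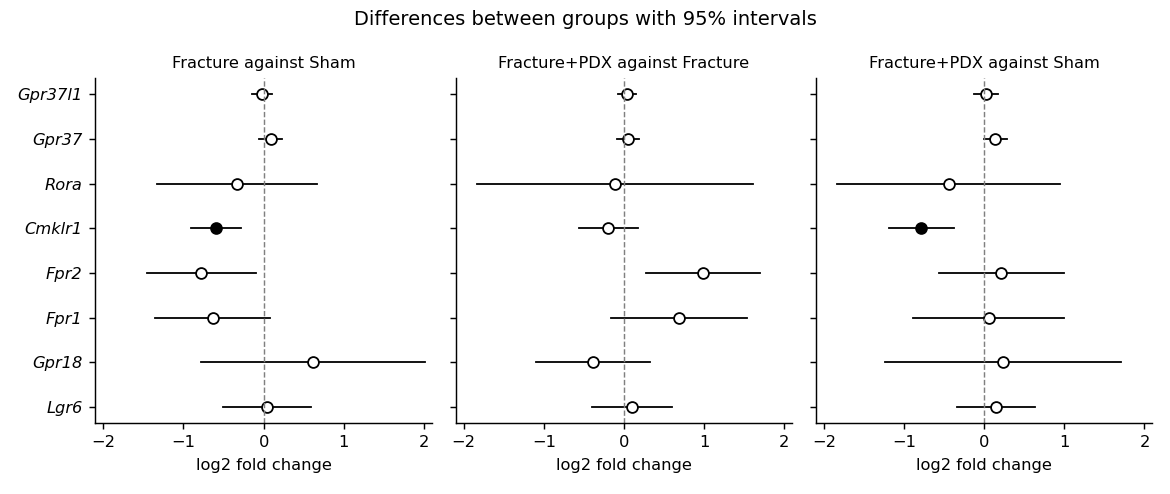
Log2 fold changes of the 8 receptor genes (points) with 95% intervals (lines) in 3 comparisons of 6 against 6 mice, from edgeR; filled points have an adjusted p under 0.05. *Cmklr1* lies left of 0 in both comparisons with sham, *Gpr37* and *Gpr37l1* have short intervals around 0, and those of *Rora* and *Gpr18* are wide.

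*Gpr37*, the receptor gene linked to protectins, differed little between the groups. Its CPM ran from 14.8 to 18.6 in sham mice (median 16.2), from 15.1 to 18.8 after fracture (median 17.6) and from 16.1 to 19.7 with PDX (median 18.2). The groups overlapped throughout, and the spread within a group was 7.16–8.08% of its mean. The log2 fold change was 0.05 for PDX against fracture (95% interval -0.08 to 0.19, adjusted p = 0.980, edgeR). It was 0.09 for fracture against sham (-0.05 to 0.23, adjusted p = 0.536, edgeR) and 0.14 for PDX against sham (-0.01 to 0.29, adjusted p = 0.303, edgeR). The upper limit of the first interval was a rise with PDX of 0.19 on the log2 scale. Across the 18 libraries, the genes whose log2 CPM was most like that of *Gpr37* were *Rlbp1* (Pearson r = 0.76), *Gm14308* (r = 0.76) and *Rangap1* (r = 0.75), among 17789 genes with at least 10 counts in every library.

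*Gpr37l1*, which marks astrocytes and satellite glia, was as even. Its CPM ran from 96.3 to 123 in sham mice (median 114), from 101 to 118 after fracture (median 112) and from 101 to 128 with PDX (median 113). The 3 groups overlapped, and 7037–9663 reads were counted on the gene per library. The log2 fold changes were 0.04 for PDX against fracture (95% interval -0.07 to 0.15, adjusted p = 0.980, edgeR), -0.02 for fracture against sham (-0.14 to 0.10) and 0.02 for PDX against sham (-0.12 to 0.17). The sexes were apart in sham mice, where the 3 males had 121–123 CPM and the 3 females 96.3–107. After fracture, males (101–118 CPM) and females (104–117 CPM) overlapped. With PDX, the females (109–128 CPM) had the higher mean and the males (101–113 CPM) the lower one, with overlap. The difference in the effect of fracture between the sexes was 0.27 on the log2 scale (SE 0.089, unadjusted p = 0.0107, adjusted p = 0.611, edgeR) and did not pass the threshold. Most alike in pattern were *Gal3st1* (r = 0.85), a sulfotransferase gene of myelin lipids, *Vim* (r = 0.84), the gene of vimentin, and *Npepl1* (r = 0.84).

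Prosaposin, a protein ligand of both GPR37 and GPR37L1, was transcribed at a high and steady level. *Psap* had 1746 ± 44.0 CPM (SD, n = 6) in sham, 1780 ± 23.1 after fracture and 1784 ± 35.0 with PDX, with log2 fold changes of 0.03 after fracture and 0.0017 with PDX over fracture. Of the 10 satellite glia markers, 9 had a higher estimate after fracture than in sham, and 1 passed the threshold, against 2.92% of all genes tested. This was *Ednrb*, an endothelin receptor gene (log2 fold change 0.35, adjusted p = 0.00978, edgeR). With PDX against sham, *Ednrb* (0.36, adjusted p = 0.0274, edgeR) and *Kcnj10*, the gene of the potassium channel Kir4.1 (0.27, adjusted p = 0.0493, edgeR), were higher.

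**Figure D3:**
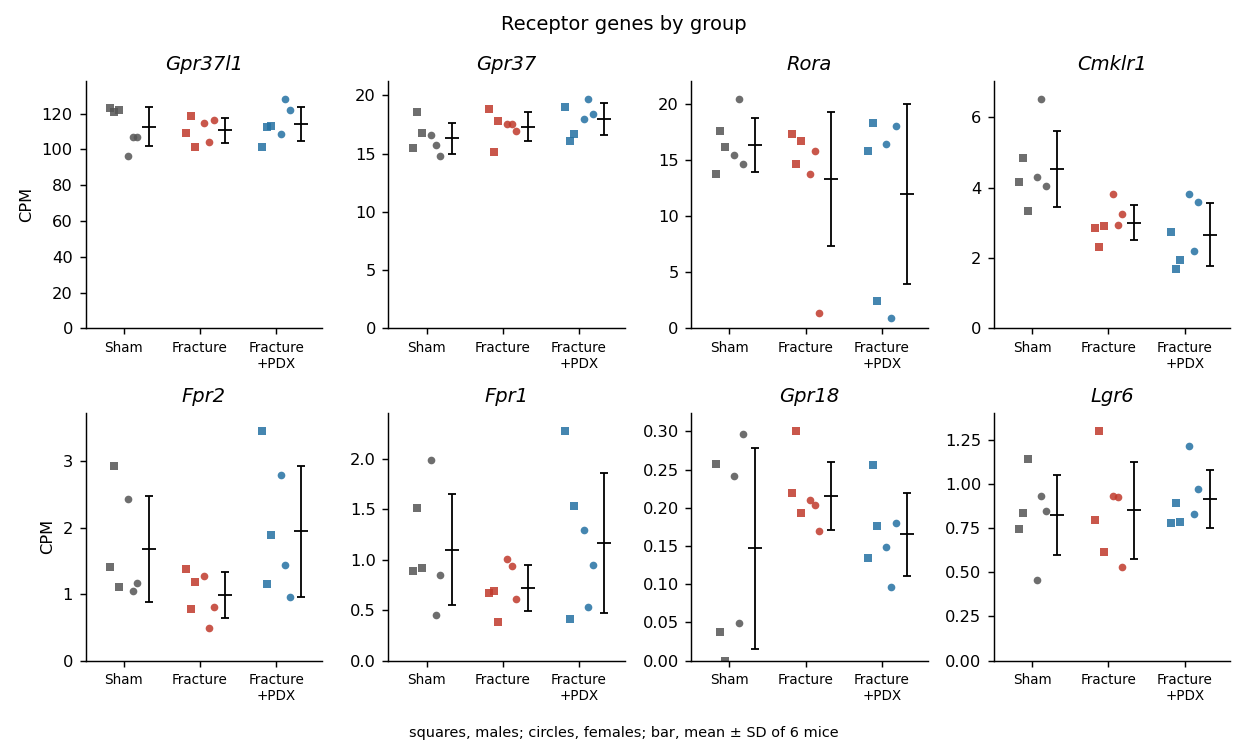
CPM of each receptor gene by group (squares, males; circles, females; bar, mean ± SD of 6 mice; each axis starts at 0). Of the 6 fracture mice, 5 lie below every sham mouse for *Cmklr1*, the *Fpr2* and *Fpr1* values spread widely in sham and PDX mice, and 3 mice are near 0 for *Rora*.

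*Cmklr1*, the gene of the chemerin and resolvin E1 receptor, was lower in both fracture groups than in sham mice. The 6 sham mice had between 3.32 and 6.51 CPM (median 4.23). The 6 fracture mice had between 2.30 and 3.81 CPM (median 2.91), and those with PDX between 1.68 and 3.82 CPM (median 2.47). After fracture, 5 of 6 mice lay below every sham mouse, and with PDX 4 of 6 did. Within each sex the fracture and sham mice did not overlap. In males the values were 2.30–2.90 CPM after fracture and 3.32–4.83 in sham, and in females 2.93–3.81 and 4.04–6.51.

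*Cmklr1* fell by 33.5% after fracture (log2 fold change -0.59, SE 0.15, adjusted p = 0.0465, edgeR) and fell by 41.9% with PDX against sham (-0.78, SE 0.19, adjusted p = 0.0326, edgeR). Exact permutation tests of log2 CPM over the mice gave p = 0.00433 and p = 0.00866 (two-sided; 6 against 6 mice cannot go below 0.00216; 24 such tests were made for the 8 genes and these p-values are not adjusted). Between PDX and fracture, the log2 fold change was -0.19 (95% interval -0.56 to 0.17, adjusted p = 0.962, edgeR), and the groups overlapped. All 21 alternative fits of each comparison with sham gave a negative fold change, but the adjusted p lay close to the threshold. After fracture, the call was lost when any single library was left out other than sham female 3 or fracture female 1 (adjusted p from 0.0549 to 0.111 in the 10 fits that lost it). With PDX, it was lost without sham male 1, sham male 2, sham female 2, or PDX male 2, male 3 or female 2 (0.0526 to 0.0944). Of the 9 other alternative fits, 6 lost the call after fracture and 3 lost it with PDX, with adjusted p-values of at most 0.130 and 0.0983 (edgeR).

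Of the other genes of the chemerin system, *Ccrl2* was lower in both comparisons with sham and *Rarres2* in PDX against sham, while *Gpr1* passed in neither. *Rarres2*, the gene of chemerin, had 36.5–50.5 CPM in sham mice (median 48.2), 34.7–42.6 after fracture (median 38.4) and 31.3–38.5 with PDX (median 34.9). Of the 6 PDX mice, 5 lay below every sham mouse. Its log2 fold change was -0.37 with PDX against sham (SE 0.078, adjusted p = 0.0173, edgeR) and -0.23 after fracture (adjusted p = 0.162, edgeR). *Ccrl2*, the gene of a membrane protein that binds chemerin without known signaling, had 1.54–2.50 CPM in sham mice, 0.761–1.53 after fracture and 0.916–1.57 with PDX. No fracture mouse reached the lowest sham mouse. *Ccrl2* fell by 0.90 on the log2 scale after fracture (adjusted p = 0.0148, edgeR) and by 0.70 with PDX against sham (adjusted p = 0.0274, edgeR). *Gpr1*, the gene of a further chemerin receptor, had 0.847–1.58 CPM in sham, 0.425–1.03 after fracture and 0.321–1.28 with PDX, with a log2 fold change of -0.85 after fracture (adjusted p = 0.0980, edgeR). PDX against fracture gave -0.14 for *Rarres2* (adjusted p = 0.901, edgeR), 0.20 for *Ccrl2* and 0.19 for *Gpr1*, with adjusted p-values of 0.968 and 0.990 (edgeR) for the last pair.

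**Figure D4:**
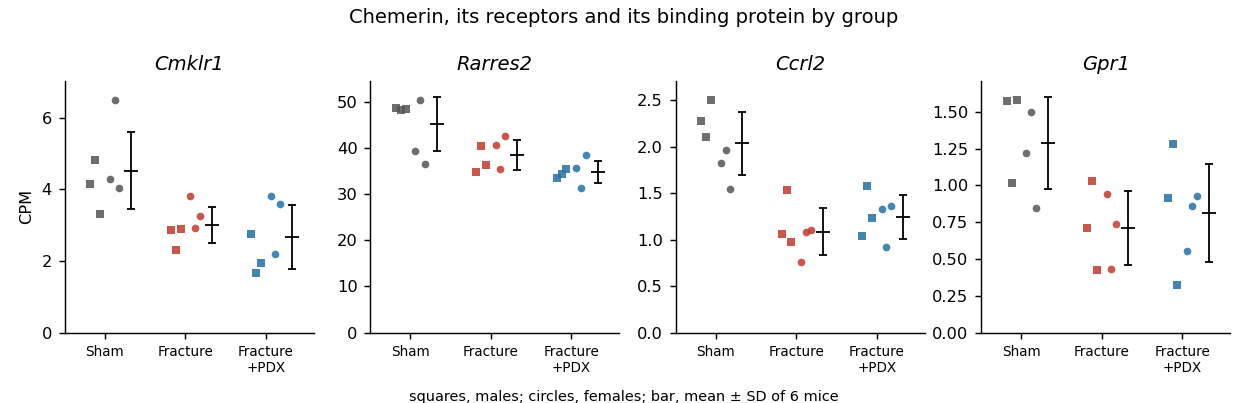
CPM of *Cmklr1*, *Rarres2* (chemerin), *Ccrl2* and *Gpr1* by group (squares, males; circles, females; bar, mean ± SD of 6 mice; each axis starts at 0). The means of both fracture groups lie below that of sham for each gene, and the fracture and sham mice do not overlap for *Ccrl2*.

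Markers of cells that can carry *Cmklr1* were compared beside it. Of all genes tested, 2.92% passed the threshold after fracture and 4.5% in PDX against sham. All 12 macrophage markers had a lower estimate after fracture than in sham, and 2 passed the threshold, *Csf1r* (-0.47, adjusted p = 0.00733, edgeR) and *Adgre1*, the gene of F4/80 (-0.56, adjusted p = 0.0139, edgeR). The macrophage markers summed to 134–173 CPM in sham, 105–138 after fracture and 101–146 with PDX. Of the 8 endothelial markers, 6 were lower, and *Cdh5* (-0.73, adjusted p = 0.0117, edgeR) and *Flt1* (-0.71, adjusted p = 0.0171, edgeR) passed the threshold. They summed to 151–202 CPM in sham, 136–156 after fracture and 127–158 with PDX. All 8 fibroblast markers were lower and *Dcn* passed (-0.33, adjusted p = 0.0331, edgeR), with sums of 1763–2338, 1649–1892 and 1547–2232 CPM. None of these markers was at 0. With PDX against sham, *Csf1r* (-0.34, adjusted p = 0.00431, edgeR), *Cdh5* (-0.74, adjusted p = 0.00216, edgeR) and *Flt1* (-0.73, adjusted p = 0.00339, edgeR) passed. There 6 of the 12 macrophage markers had a lower and 6 a higher estimate (median -0.07), all 8 endothelial markers a lower one (median -0.16) and all 8 fibroblast markers a lower one (median -0.25). In PDX against fracture, 10 of the 12 macrophage markers had a higher estimate and 0 passed, where *Cmklr1* was at -0.19. The part of these cells in the fall of *Cmklr1* was not tested. The genes most like *Cmklr1* over the 18 libraries were *Ppl* (r = 0.87), *Sall4* (r = 0.84) and *Gm16386* (r = 0.82).

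*Fpr2*, the gene of the lipoxin A4 receptor, and *Fpr1*, the gene of the classical formyl peptide receptor of neutrophils, varied widely between mice of a group. The SD was 35.4–50.5% of the group mean for *Fpr2* and 31.7–59.5% for *Fpr1*, against 16.5–33.2% for *Cmklr1*. The genes lie 3883 bases apart on chromosome 17, *Fpr1* (ENSMUSG00000045551) on the minus strand from 17876471 to 17883940 and *Fpr2* (ENSMUSG00000052270) on the plus strand from 17887824 to 17893952, so that their promoters face the same gap. The 250 bases before the RefSeq start of each gene (GRCm38.p6, written 5′ to 3′ on the strand of the gene) are shown because the genes adjoin and their estimates had the same sign in fracture against sham and in PDX against fracture. Capitals mark GAGGAA on either strand, a longer form of the GGAA core shared by ETS factors such as PU.1. The shorter core was neither searched nor marked, and both sequences hold it outside the capitals on at least 1 strand.
Fpr2, chr17:17887574-17887823, plus strand: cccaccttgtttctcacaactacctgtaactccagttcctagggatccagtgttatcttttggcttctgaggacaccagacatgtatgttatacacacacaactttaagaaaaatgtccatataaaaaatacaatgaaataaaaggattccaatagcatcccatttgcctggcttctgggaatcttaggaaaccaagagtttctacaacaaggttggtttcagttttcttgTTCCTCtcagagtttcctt
Fpr1, chr17:17883940-17884189, minus strand: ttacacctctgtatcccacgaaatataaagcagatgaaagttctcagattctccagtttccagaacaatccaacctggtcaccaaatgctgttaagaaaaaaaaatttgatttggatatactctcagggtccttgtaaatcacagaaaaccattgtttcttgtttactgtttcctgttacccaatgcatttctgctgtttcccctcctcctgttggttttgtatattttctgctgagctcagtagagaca
The motif was found once before *Fpr2*, beginning 19 bases before the start, and not before *Fpr1*. Of the other 6 receptor genes, it was found before 1, *Cmklr1* (98 bases before the start), whose estimate in PDX against fracture had the opposite sign. It is present in 23.3% of all 32851 promoter sequences of this length. The C/EBP motif TTGCNNAA was found before neither gene and is in 9.56% of all promoters. The motifs do not overlap here, were searched on both strands, and were chosen after the values had been seen.

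*Fpr2* had 1.04–2.93 CPM in sham mice (median 1.29), 0.484–1.38 after fracture (median 0.996) and 0.959–3.45 with PDX (median 1.66). With PDX, 4 of 6 mice exceeded the highest fracture mouse, and sham and PDX mice overlapped. The log2 fold change with PDX over fracture was 0.99 (95% interval 0.27 to 1.70, unadjusted p = 0.0103, adjusted p = 0.887, edgeR). Over 21 alternative fits it ran from 0.44 to 1.16, and no adjusted p passed. The exact permutation test, which took no account of sex, gave p = 0.0346, not adjusted for the number of such tests. After fracture, *Fpr2* was at -0.78 against sham (95% interval -1.45 to -0.10, unadjusted p = 0.0276, adjusted p = 0.204, edgeR), and 3 fracture mice lay below every sham mouse (exact permutation test, p = 0.0671). Fracture is the low group in both comparisons, which share its 6 mice. PDX against sham gave 0.21 (-0.57 to 0.99, adjusted p = 0.828, edgeR).

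*Fpr1* had 0.447–1.99 CPM in sham mice (median 0.905), 0.386–1.01 after fracture (median 0.678) and 0.410–2.27 with PDX (median 1.12). All groups overlapped, although 3 PDX mice exceeded the highest fracture mouse. Its log2 fold changes were 0.69 with PDX over fracture (95% interval -0.16 to 1.54, adjusted p = 0.917, edgeR), -0.64 after fracture (-1.35 to 0.08, adjusted p = 0.334, edgeR) and 0.05 with PDX against sham (-0.88 to 0.99, adjusted p = 0.972, edgeR). *Fpr2* was the higher of the pair in 17 of 18 libraries, with a median FPKM ratio of 1.48 (range 0.54–3.12). The exception was a fracture mouse, and the 3 group medians of the ratio were 1.52 in sham, 1.30 after fracture and 1.87 with PDX.

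Neutrophil genes moved with this pair. The genes most like *Fpr2* over the 18 libraries were *Mcemp1* (r = 0.93), *Mmp8*, the neutrophil collagenase gene (r = 0.92), and *Ncf4*, a gene of the NADPH oxidase (r = 0.92). Those most like *Fpr1* were the granule protein gene *Ngp*, the chitinase-like gene *Chil3* and the gelatinase gene *Mmp9* (r = 0.86, 0.86 and 0.85). The 14 neutrophil markers summed to 99.6–426 CPM per library in sham, 106–220 after fracture and 95.5–537 with PDX. No marker was at 0 in a whole group, but *Ly6g* had 0 counts in at least 1 fracture library. The 4 libraries with the highest neutrophil sums (PDX male 1 with 537, PDX female 1 with 471, sham male 2 with 426 and sham female 1 with 391 CPM) were also the 4 highest for *Fpr2*, at 3.45, 2.80, 2.93 and 2.42 CPM. For *Fpr1*, 3 of these 4 libraries were among its 4 highest. All 14 markers were higher with PDX over fracture, with a median log2 fold change of 1.02, and 0 passed the threshold. All 14 were lower after fracture than in sham, with a median of -0.81, and 1 passed, against 2.92% of all genes tested. It was the chemokine receptor gene *Cxcr2* (-1.25, adjusted p = 0.0171, edgeR). The part of neutrophils in the values of *Fpr1* and *Fpr2* was not tested.

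**Figure D5:**
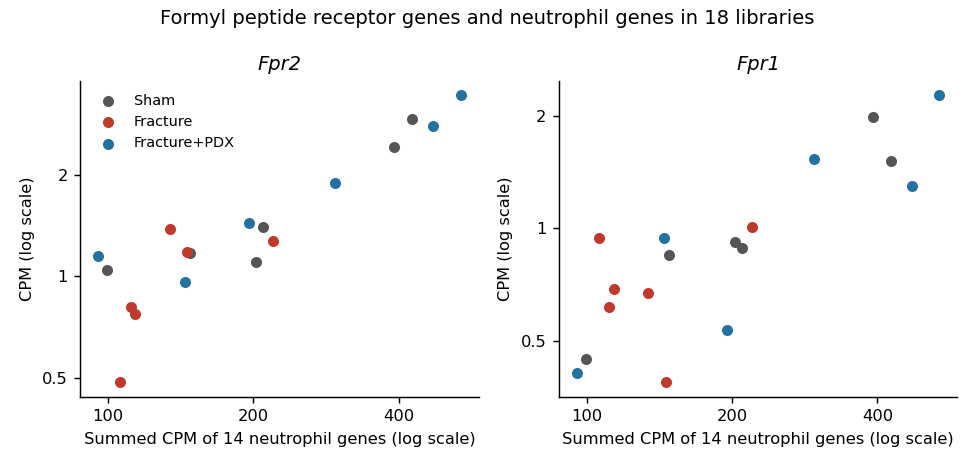
CPM of *Fpr2* (left) and *Fpr1* (right) against the summed CPM of 14 neutrophil marker genes in 18 libraries, 1 point per mouse, coloured by group (both axes log scale). The 4 libraries with 391–537 CPM of neutrophil genes are the 4 highest for *Fpr2*, and they are 2 sham and 2 PDX mice; the points share the library and its depth.

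*Anxa1*, the gene of annexin A1, a protein ligand of both formyl peptide receptors, was lowest in fracture mice by its median. It had 28.1–41.3 CPM in sham (median 33.8), 22.1–33.6 after fracture (median 26.8) and 22.9–44.8 with PDX (median 33.1). After fracture, 5 of 6 mice lay below every sham mouse. The log2 fold change was -0.35 after fracture (SE 0.11, adjusted p = 0.128, edgeR) and 0.38 with PDX over fracture (SE 0.17, adjusted p = 0.912, edgeR), so neither passed. *Ltb4r1*, the gene of the leukotriene B4 receptor BLT1, to which resolvin E1 also binds, stood at -0.60 (adjusted p = 0.223, edgeR) and 0.95 (adjusted p = 0.887, edgeR). It was chosen for mention after its values had been seen.

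*Gpr18*, linked to resolvin D2, was barely counted. Between 0 and 21 reads per library fell on it. The 6 sham mice had 0–0.296 CPM (median 0.145), the fracture mice 0.169–0.300 (median 0.207) and the PDX mice 0.0957–0.256 (median 0.163). In 2 sham libraries it was at or below 3 counts, the floor of detection used here. The log2 fold changes were -0.39 with PDX over fracture (95% interval -1.10 to 0.32, adjusted p = 0.958, edgeR) and 0.61 after fracture (-0.79 to 2.01, adjusted p = 0.686, edgeR). The second interval does not exclude a rise by a factor of 2 (a log2 fold change of 1), and the first does not exclude a fall of that size.

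*Lgr6*, an R-spondin receptor gene linked to maresin 1, was as low per length, with 36–91 reads per library. It had 0.457–1.14 CPM in sham (median 0.843), 0.531–1.30 after fracture (median 0.865) and 0.781–1.22 with PDX (median 0.865). The groups overlapped almost fully. The log2 fold changes were 0.10 with PDX over fracture (95% interval -0.40 to 0.60, adjusted p = 0.994, edgeR), 0.05 after fracture (-0.50 to 0.60) and 0.15 with PDX against sham (-0.34 to 0.63). The nearest patterns were those of *Rpusd4* (r = 0.76), *Tspan31* (r = 0.76) and *Drc3* (r = 0.75).

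The relatives of *Lgr6* were more abundant and 1 of them changed. *Lgr5* had a median of 1.51 FPKM in sham mice, 1.88 after fracture and 1.88 with PDX, and its CPM were 13.3–19.0, 20.6–23.4 and 17.5–24.5. Every fracture mouse lay above every sham mouse. It rose by 0.39 on the log2 scale after fracture (SE 0.063, adjusted p = 0.0108, edgeR) and by 0.37 with PDX against sham (adjusted p = 0.0361, edgeR). *Lgr4*, with medians of 9.19–9.52 FPKM, was at 0.02 after fracture (adjusted p = 0.883, edgeR) and is named outside the rule, after its values had been seen. The R-spondin genes, whose products these receptors bind, did not pass in any comparison of groups. *Rspo2* was the most abundant (medians of 9.53–10.3 FPKM), followed by *Rspo1* (6.11–6.67), *Rspo4* (1.28–1.30) and *Rspo3* (0.34–0.48). Their log2 fold changes after fracture were 0.08, 0.0074, 0.11 and -0.53. Of the 9 protein ligand and co-receptor genes tested, 1 passed after fracture and 2 in PDX against sham, all of the chemerin system and all lower. Of 5 further candidate receptors and relatives tested, 2 passed in each of those comparisons (*Lgr5* and *Ednrb*, both higher), and 0 of either list passed in PDX against fracture. The share over all genes tested was 2.92% after fracture and 4.5% in PDX against sham.

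*Rora*, the gene of a nuclear receptor that drives part of the circadian clock, was counted at a small fraction of its usual level in 3 libraries. These were fracture female 3 with 117 reads, PDX male 3 with 154 and PDX female 2 with 66. The other 15 libraries had 962–1647 reads. In CPM the 3 libraries had 0.902–2.47 and the other 15 had 13.8–20.5, so that the sets did not overlap. Of the 13737 genes with a mean of at least 200 counts, 131 (0.954%) had a library more than 5 times under their median CPM, and 0 others were this low in exactly the same 3 libraries. The cause was not tested.

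With all mice, *Rora* had 16.4 ± 2.4 CPM (SD, n = 6) in sham, 13.3 ± 5.97 after fracture and 12 ± 8.07 with PDX. Its log2 fold changes were -0.33 after fracture (95% interval -1.33 to 0.67, adjusted p = 0.768, edgeR), -0.11 with PDX over fracture (-1.84 to 1.62, adjusted p = 0.997, edgeR) and -0.44 with PDX against sham (-1.83 to 0.95, adjusted p = 0.784, edgeR). Without the 3 libraries, the means were 16.4 ± 2.4 (n = 6), 15.7 ± 1.47 (n = 5) and 17.2 ± 1.20 CPM (n = 4). The log2 fold changes were then -0.06 after fracture, 0.14 with PDX over fracture and 0.07 with PDX against sham. The genes most like *Rora* were *Trim7*, *Slc25a44* and *Soga1* (r = 0.83, 0.82 and 0.80 over 18 libraries). Over the 15 libraries with usual *Rora* counts, r for the same genes was 0.56, 0.05 and 0.61.

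Clock genes that stand beside *Rora* were measured too. Of 17 tested, 12 had a lower estimate after fracture than in sham and 2 passed the threshold, against 2.92% of all genes tested. These were *Nr1d1*, the gene of the repressor REV-ERBα (-0.67, adjusted p = 0.00449, edgeR), and *Dbp*, a clock output gene (-0.53, adjusted p = 0.00859, edgeR). With PDX against sham, 12 were lower, and *Nr1d1* (-0.41, adjusted p = 0.0293, edgeR) and *Bhlhe40* (-0.29, adjusted p = 0.0396, edgeR) passed. The hour of dissection is not given in the sources used here. With PDX over fracture, 0 of the 17 passed, with a median of -0.03.

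The sexes were compared over all 18 mice with group as a covariate. None of the 8 receptor genes passed, against 0.275% of 22557 genes (62). The nearest was *Cmklr1*, higher in females by 0.39 on the log2 scale (95% interval 0.10 to 0.68, unadjusted p = 0.0112, adjusted p = 0.314, edgeR). Its group means were 4.10, 2.69 and 2.13 CPM in males and 4.95, 3.33 and 3.21 CPM in females for sham, fracture and PDX. *Gpr37* differed by 0.0035 between the sexes (95% interval -0.11 to 0.12). Whether the effect of PDX or of fracture differed between males and females was tested as an interaction, and 0 of the 8 passed in either. Over all genes, 0.00457% of 21878 (1 gene, *Xntrpc*) passed for PDX and 0% of 22047 for fracture, where 1553 genes had an unadjusted p under 0.05 and DESeq2 called 64. The widest intervals were those of *Rora* and *Gpr18*, and *Fpr1* had an interaction with PDX of -1.16 (-2.75 to 0.42).

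Of 20 genes of enzymes that make and degrade lipid mediators, 0 passed with PDX over fracture (median log2 fold change 0.0098). After fracture, 16 of the 20 had a lower estimate than in sham (median -0.26, against 0.0021 over all genes tested) and 0 passed. Between PDX and sham mice 1 of the 20 passed, against 4.5% of all genes tested. It was *Ephx1*, an epoxide hydrolase gene (-0.24, adjusted p = 0.0381, edgeR). Of 21 genes of phagocytosis and efferocytosis, processes that SPMs promote in macrophages, 0 passed with PDX over fracture. After fracture, 3 of 21 passed, against 2.92% of all genes tested. All 3 were lower, namely the bridging protein gene *Mfge8* (-0.31, adjusted p = 0.0205, edgeR), *Itgb5* (-0.37, adjusted p = 0.0287, edgeR) and *Dock1* (-0.25, adjusted p = 0.0329, edgeR). With PDX against sham, *Mfge8* (-0.41), *Itgb5* (-0.33), *Dock1* (-0.24) and *Pros1*, the gene of protein S (-0.35), passed with adjusted p-values of 0.00189, 0.0104, 0.0343 and 0.00574 (edgeR).

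Among the remaining cell types, 4 of 12 sensory neuron markers passed after fracture, against 2.92% of all genes tested. These 4 were higher, namely *Nefh* (0.22), *Tubb3* (0.17), *Uchl1* (0.14) and *Scn9a* (0.16), with adjusted p-values of 0.0126, 0.0126, 0.0212 and 0.0451 (edgeR). In the PDX group, 3 passed against sham (*Tubb3*, *Rbfox3* and *Uchl1*), where 4.5% of all genes tested did. Of 10 myelinating Schwann cell markers 9 were lower after fracture, as were 9 of 10 lymphocyte and 8 of 8 red blood cell markers, with medians of -0.20, -0.48 and -0.58, and 0 passed in these lists. In PDX against fracture, 8 of 9 lymphocyte (median 0.31), 8 of 8 red blood cell (median 0.28) and 10 of 12 macrophage markers (median 0.23) had a higher estimate, in the direction of *Fpr2*, *Fpr1* and the neutrophil markers, and 0 passed. Their part in those values was not tested.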

How the data were processed

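Poly(A)-selected RNA of L3–L5 DRG was sequenced in 18 libraries from 6 sham, 6 fracture and 6 fracture plus PDX mice, with 3 males and 3 females in each group. The authors deposited read counts per gene, without normalization, and FPKM values, which the authors scaled by transcript length and library size. The submitters' processing notes name cutadapt 1.10, FastQC, HISAT2, StringTie and the build mm10, without the program that counted the reads. The counting program and its strand setting are not given in the sources used here. Coordinates of the 8 genes match GRCm38. Depth ran from 63235040 to 82824942 counts per library.

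The counts were fitted with edgeR 4.0.16 in R 4.3.3 (filterByExpr with a minimum count of 10 and a minimum total count of 15, TMM, robust quasi-likelihood fit). The 12 libraries of each comparison were fitted with sex as a covariate. The difference between sexes and the interactions were fitted on the libraries they concern. The threshold was an adjusted p of 0.05 (Benjamini-Hochberg) over all genes tested. The steps were tested on simulated data with 200 changed genes. Single genes were compared with exact permutation tests of log2 CPM (prior count 2) in scipy 1.17.1, which took no account of sex and were not adjusted. The floor of detection was set at 3 counts per library. The labels do not say that mice were independent beyond being separate samples, and they name no batch.

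The genes named are the 8 receptor genes, the 3 genes most like each of them over 18 libraries (with at least 10 counts in every library), all genes of the list of protein ligands and co-receptors (*Gpr1* included) with at least 10 counts in every library, the called genes of 10 lists of cell type markers and 5 lists of pathway genes, at most 4 per direction, and genes behind a count of 5 or fewer. *Ltb4r1* and *Lgr4* are named outside this rule. The receptor genes and the lists were chosen with earlier results of these data known. Alternatives were DESeq2 1.42.0, upper-quartile scaling, leaving out the filter, a stricter filter of 10 counts in every library, leaving out sex, a replicate block for mice of the same sex and number, all 18 libraries in 1 fit, limma 3.58.1 on log2(FPKM + 1) and log2(FPKM + 0.1), and leaving out each library. Leaving out the 3 libraries with few *Rora* counts was chosen after seeing the data. Promoter sequences are from RefSeq (GRCm38.p6) and matched all 8 genes by symbol, of which those of *Fpr1* and *Fpr2* are shown. Other experiments of the study were not analysed here.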

Additional observations from a re-analysis of the deposited data

Results flagged for a closer look

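In each of the 3 groups of 6 mice, the highest and the lowest CPM of the 8 receptor genes were compared with their neighbours by Dixon's ratio (gap over range, at its 95% critical value). Of 24 groups tested, 1 stood out, where chance gives about 1 in 20. *Rora* in fracture female 3 had 1.41 CPM, while the next fracture mouse had 13.8 CPM, a ratio of 0.776. The other libraries low in *Rora* are both PDX mice, lie close to each other and so do not exceed this ratio.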

How the results depend on the processing

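No receptor gene gained a call under any alternative run, and *Cmklr1* kept its negative sign against sham in all of them. With DESeq2 the genes called numbered 10 for PDX against fracture, 1506 for fracture against sham, 1627 for PDX against sham, 326 between sexes, 9 for the interaction of sex with PDX and 64 for that with fracture. The fall of *Cmklr1* after fracture was not called without the filter on low counts (adjusted p = 0.0539), without sex (0.0639), with all 18 libraries in 1 fit (0.0576) or with limma on FPKM (0.0742 and 0.0657), which left 0 of the 8 called. With PDX against sham, the call was lost without sex (0.0646) and with limma on log2(FPKM + 1) (0.0501). Mice of the same number were not shown to be paired. Their deviations from the means of their group and sex correlated between -0.14 and 0.16, with 5 of 18 pairs over 0.1. In PDX against fracture, the male pairs had 0.16, 0.11 and 0.15, and the female pairs 0.05, -0.11 and -0.09. With the replicate block, 118 and 486 genes were called in the comparisons of fracture and of PDX with sham, and 0 of the 8, with *Cmklr1* at adjusted p = 0.130 and 0.0983 (edgeR). The cause of these shifts was not tested.

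Leaving out 1 library at a time gave 213–710 genes for fracture against sham (fewest without fracture female 2) and 498–1008 for PDX against sham (fewest without PDX female 1), with 0 or 1 of the 8 called. It gave 0 or 1 for PDX against fracture, where *Zbtb16* was called without PDX female 3. Fold changes near 0 changed sign without 1 library. The ranges were -0.37 to 0.14 (*Rora*) and -0.027 to 0.28 (*Lgr6*) for PDX against fracture, and -0.10 to 0.15 (*Lgr6*) and -0.057 to 0.021 (*Gpr37l1*) for fracture against sham. For PDX against sham they were -0.22 to 0.42 (*Fpr1*), -0.019 to 0.44 (*Fpr2*), -0.094 to 0.74 (*Gpr18*) and -0.018 to 0.067 (*Gpr37l1*). Without the 3 libraries with few *Rora* counts, *Rora* turned to 0.14 for PDX against fracture and 0.071 for PDX against sham. The exact tests of the 8 genes kept their direction and side of the threshold on log2(FPKM + 0.1). Counts of 0–21 per library limit the precision for *Gpr18*.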
